A study of Mus musculus with 12 samples.

Results

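Expression of 9 enzymes that make, activate or inactivate steroid hormones within a tissue was read in single cells of the mouse mammary gland. The genes were Akr1c18, Akr1c14, Hsd11b1, Hsd17b4, Hsd17b10, Hsd17b11, Hsd17b12, Srd5a1 and Srd5a3, picked by symbol from the 27998 genes that each of the 12 libraries lists, and all 9 were found. The glands came from female C57BL/6J mice aged 43 weeks, with 1 library for each group. Apart from the Intact mice, every animal had received 4-vinylcyclohexene diepoxide (VCD), which destroys the small ovarian follicles and leaves the ovary in place, by intraperitoneal injection at 160 mg/kg/day for 15 days. Of the 11 VCD groups, 9 filled a full layout of hormone and flame retardant. The hormone was absent (VCD_Vehicle, VCD_Low_PBDE, VCD_High_PBDE), or was estradiol (E2) at 1 µg per animal per day (VCD_E2, VCD_Low_E2, VCD_High_PBDE_E2), or was E2 with progesterone (P4) at 1 mg per animal per day (VCD_E2_P4, VCD_Low_E2_P4, VCD_High_PBDE_E2_P4), injected in sesame oil during the last 1 week. The low level of polybrominated diphenyl ethers (PBDE) was 0.05, 0.0028 and 0.0063 mg/kg/day of PBDE-47, PBDE-100 and PBDE-153 in food for 20 weeks, and the high level was 1, 0.056 and 0.126 mg/kg/day for 1 week, so that amount and duration cannot be told apart. Groups without PBDE ate a matched food with DMSO. The remaining VCD groups were VCD_E2_ICI, given E2 and a single 5 mg injection of the estrogen receptor antagonist ICI, and VCD_Vehicle_NormEnv, a hormone-free group that may have met PBDE from the environment. The number of animals behind each library is not given in the sources used here.

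Circulating ovarian and adrenal steroids are converted again inside their target tissues, and the enzymes there set how much active hormone reaches a receptor. Akr1c18 inactivates progesterone by reducing its side chain, and Akr1c14 reduces dihydrotestosterone and dihydroprogesterone at the opposite end of the molecule. Hsd11b1 regenerates active glucocorticoid from its inert keto form with NADPH that H6pd supplies in the endoplasmic reticulum, while Hsd11b2 runs the reaction the other way. The Hsd17b family interconverts weak and potent estrogens and androgens, although several members serve mainly in lipid metabolism, and Srd5a1 makes dihydrotestosterone and dihydroprogesterone.

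Akr1c18 (chr13:4132615-4150654, minus strand), Akr1c14 (chr13:4049011-4090688, plus strand) and Hsd11b1 (chr1:193221634-193264075, minus strand; all GRCm38) were the members whose levels differed most between cell types or hormone groups. The 250 bases before the RefSeq start of each are shown for that reason, from GRCm38.p6 at chr13:4150647-4150896 (minus), chr13:4059341-4059590 (plus) and chr1:193242361-193242610 (minus). Capitals would mark a match to TGTTCT, a core to which the glucocorticoid and progesterone receptors bind, or to the estrogen response element, written as GGTCA and TGACC with 3 bases of any kind between them, on either strand.
Akr1c18: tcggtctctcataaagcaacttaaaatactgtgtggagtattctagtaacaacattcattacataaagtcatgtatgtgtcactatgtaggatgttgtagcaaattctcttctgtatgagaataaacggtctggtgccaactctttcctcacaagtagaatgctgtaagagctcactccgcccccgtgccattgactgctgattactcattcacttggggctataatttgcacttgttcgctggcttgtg
Akr1c14: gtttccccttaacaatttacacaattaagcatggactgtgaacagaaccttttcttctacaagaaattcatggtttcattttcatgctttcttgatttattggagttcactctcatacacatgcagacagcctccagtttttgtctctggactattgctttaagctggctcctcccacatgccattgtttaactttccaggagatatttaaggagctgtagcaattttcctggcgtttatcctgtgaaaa
Hsd11b1: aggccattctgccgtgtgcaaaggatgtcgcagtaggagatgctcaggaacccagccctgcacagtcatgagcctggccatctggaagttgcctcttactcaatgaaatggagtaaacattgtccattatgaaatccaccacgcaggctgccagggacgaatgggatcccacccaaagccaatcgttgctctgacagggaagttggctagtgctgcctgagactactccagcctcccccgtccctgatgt
None of these windows held either motif, and neither did those of Hsd17b10, Hsd17b11, Hsd17b12, Srd5a1 and Srd5a3, which makes 0 of the 8 members with a promoter in the table. Among 32851 promoters of the same length, 16.1% held the first motif and 0.0639% the second. The absence of a match says only that these letters are not in these windows. Akr1c18 and Akr1c14 belong to 1 cluster of closely related genes. How far reads common to near-identical copies affect the counts of either was not tested. On the same strand, the Hsd11b1 locus overlaps Gm38118, that of Akr1c14 overlaps Gm18857, that of Srd5a1 overlaps Gm17108 and that of Hsd17b4 overlaps Cd63-ps.

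The libraries held 41737881 to 109224969 unique molecular identifier (UMI) counts, and 46257 cells passed the limits of 500 detected genes, 1000 UMIs and 5% mitochondrial counts, 1996 to 7570 per library. Of 57499 distinct barcodes, 740 occurred in more than 1 library, with 1 to 185 shared by a pair, so the main results are also given without them. Cells were assigned by the summed counts of marker genes per 10000 UMIs, none of them a member. Fibroblasts lacked any count of 6 exclusion genes (Pecam1, Cspg4, Ptprc, Cd52, Epcam and Krt14) and carried at least 80 of Lum, Dcn, Col3a1, Col1a1, Col1a2 and Pdgfra, which gave 31343 cells. Among them, Dpp4+ fibroblasts (13691 cells) carried at least 12 of Dpp4, Pi16 and Anxa3, and cells with fewer than 8 were divided into Fabp4 fibroblasts (5267 cells), Tnc fibroblasts (1717 cells, by Tnc and Mfap4) and Gdf10 fibroblasts (3078 cells, by Gdf10 and F3). The remaining fibroblasts fell in none of these, among them cells with fewer than 8 that met more than 1 of the other marker rules. Immune cells numbered 7028, including 2679 T cells, 1333 macrophages, 765 dendritic cells and 311 B cells, while only 163 luminal epithelial, 125 endothelial and 70 Schwann cells were found. Immune, luminal and endothelial cells had to carry fewer than 40 of the 6 fibroblast markers. Levels are counts of a gene per 1000000 UMIs (CPM), summed over all cells of 1 type in 1 library. In sums, more cells with the transcript and more transcript per cell cannot be told apart. In the dendritic gate, natural killer (NK) and innate lymphoid markers (Ncr1, Klrb1c, Nkg7, Gzma and Il7r) summed to a median of 1672 CPM. Its own markers summed to a median of 770 CPM. The NK and innate lymphoid median was 1573 CPM in T cells and 28.3 CPM in macrophages. The cells called dendritic below may therefore include NK or innate lymphoid cells, and their part was not tested.

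Among the fibroblasts, Akr1c18 was mainly a transcript of the Dpp4+ type. Its level there ranged over the 12 libraries from 356 to 766 CPM, with a median of 474 CPM. In Fabp4 fibroblasts it ranged from 1.29 to 4.20 CPM with a median of 2.57 CPM, and in Gdf10 fibroblasts from 1.77 to 5.34 CPM with a median of 3.26 CPM. In Tnc fibroblasts the lowest, median and highest values were 1.24, 2.53 and 39.7 CPM. The highest of these was VCD_E2, where 1 cell held 52 of the 84 counts (61.9%), and no other library exceeded 3.41 CPM, so the Dpp4+ range lay far above the other fibroblasts in every library. Across all 12 libraries the level in Dpp4+ fibroblasts exceeded the mean of the other 3 types by 7.12 ± 0.17 on the log2 scale (SE), a 139-fold difference (edgeR quasi-likelihood test, Benjamini-Hochberg adjusted p = 9.8e-31). This is not independent evidence, since Akr1c18 was chosen with results of these data known. A count of Akr1c18 was found in 64.7% of Dpp4+ cells (95% exact Clopper-Pearson interval, 63.9% to 65.5%), against 3.99% of Fabp4, 4.08% of Tnc, 3.64% of Gdf10 and 4.14% of T cells. After each cell was thinned to 5000 UMIs, which left out 1111 shallower Dpp4+ cells, the share was 54.1% of Dpp4+ cells and 1.26%, 1.49%, 1.57% and 2.58% of the others in that order. Immune cells as a whole carried 2.66% of the Dpp4+ level of Akr1c18 and 2.15% of the Dpp4+ level of Dpp4, Pi16 and Anxa3. The corresponding pair was 2.28% and 1.54% in T cells, 1.44% and 2.26% in B cells, and 0.658% and 3.40% in luminal cells, so Akr1c18 did not follow these markers in 1 ratio. Single T cells held 17 of the 20 Akr1c18 counts of VCD_High_PBDE_E2, 21 of the 57 of VCD_Low_PBDE, 19 of the 53 of VCD_Low_E2 and 10 of the 23 of VCD_E2. The part of free RNA in the immune values was not tested. The few Schwann cells, pooled over all libraries, stood at 215 CPM, but 1 cell of VCD_Low_E2 held 67 of the 68 counts of that library, 1 cell of VCD_High_PBDE_E2_P4 held all 23 of its library, and the other libraries had 0.

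Akr1c14 was graded over the fibroblasts rather than restricted. The lowest, median and highest values over 12 libraries were 39.1, 79.5 and 149 CPM in Dpp4+ fibroblasts. They were 10.7, 27.9 and 46.9 CPM in Fabp4, 4.54, 22.7 and 124 CPM in Tnc, and 5.85, 15.5 and 35.2 CPM in Gdf10 fibroblasts. The medians were lower in that order. The Dpp4+ and Gdf10 ranges did not overlap, while neighbouring types in this order did. Dpp4+ fibroblasts exceeded the mean of the other types by 1.95 ± 0.15 on the log2 scale (edgeR adjusted p = 2.8e-14), and Gdf10 fibroblasts lay below the mean of theirs by a log2 difference of -1.41 ± 0.21 (adjusted p = 7.4e-07). Fabp4 fibroblasts lay lower by a log2 difference of -0.47 (adjusted p = 0.025), which was lost without VCD_E2 (-0.40, adjusted p = 0.053) or VCD_Low_E2 (-0.40, adjusted p = 0.062), and no difference passed the test for Tnc fibroblasts. In immune cells Akr1c14 was at 1.59% of its Dpp4+ level, under the 2.15% of the Dpp4+ markers, and a count was found in 0.675% of immune cells thinned to 5000 UMIs against 23.6% of Dpp4+ cells. Among the rarer cells, endothelial cells carried 16.2 CPM.

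By its median over the 12 libraries, Hsd11b1 was lowest in Dpp4+ fibroblasts and highest in Tnc fibroblasts. In each of the 3 libraries with E2 + P4, however, the Dpp4+ level lay above the Tnc level. Over the 12 libraries the lowest, median and highest values were 41.9, 74.1 and 189 CPM in Dpp4+ fibroblasts. In Tnc fibroblasts they were 91.4, 528 and 921 CPM. Fabp4 fibroblasts ranged from 54.6 to 324 CPM and Gdf10 fibroblasts from 114 to 259 CPM, so the ranges of neighbouring types overlapped. The difference of Tnc fibroblasts from the mean of the other 3 was 1.57 ± 0.24 on the log2 scale (edgeR adjusted p = 8.0e-07), and that of Dpp4+ fibroblasts was -1.34 ± 0.28 (adjusted p = 7.2e-05). A count of Hsd11b1 was found in 78.3% of Tnc, 70.8% of Fabp4, 62.7% of Gdf10 and 45.0% of Dpp4+ fibroblasts, and in 66.0%, 49.8%, 46.5% and 25.3% after thinning to 5000 UMIs.

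Lymphocytes carried Hsd11b1 as well. T cells ranged from 24.2 to 65.1 CPM with a median of 50.0 CPM, and B cells pooled over all libraries were at 55.4 CPM. Dendritic cells ranged from 8.17 to 50.3 CPM, and macrophages from 3.52 to 33.4 CPM with a median of 8.99 CPM. Every T-cell library but VCD_High_PBDE_E2 lay above all macrophage libraries. As a rough measure of free RNA, the 6 fibroblast markers in T cells stood at 1.44% of their fibroblast level, whereas Hsd11b1 stood at 31.1%. The corresponding pair was 2.60% and 35.3% in B cells, 1.40% and 7.33% in macrophages, and 1.65% and 1.14% in luminal cells, where Hsd11b1 thus stood no higher than the markers. The gates of these cells kept the markers below 40 per 10000 UMIs and set no limit on Hsd11b1, so the marker shares are held low by the gating. The part of free RNA in the Hsd11b1 values was not tested. Of cells thinned to 5000 UMIs, a count was found in 20.9% of T cells (18.9% to 22.9%), 24.9% of B cells (19.9% to 30.4%), 6.86% of macrophages (5.43% to 8.54%) and 1.23% of luminal cells (0.0313% to 6.69%). These intervals cover counting error only.

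Of the other 6 enzymes, 5 were expressed in every cell type fitted and Srd5a1 was scarce, with 6 counts in all T cells and 1 in all B cells. Their differences between fibroblast types were smaller than those of Akr1c18, Akr1c14 and Hsd11b1. Hsd17b4, a peroxisomal enzyme of fatty acid oxidation, ranged from 44.2 to 53.7 CPM over the Dpp4+ sums of 12 libraries. Hsd17b10, a mitochondrial dehydrogenase that is also part of mitochondrial RNase P, ranged from 64.7 to 80.1 CPM there and from 78.2 to 127 CPM in Tnc fibroblasts. Hsd17b11, found on lipid droplets, ranged from 52.5 to 77.1 CPM in Dpp4+ fibroblasts, and Hsd17b12, the reductase of fatty acid elongation, from 38.0 to 50.6 CPM. Srd5a3, which makes dolichol for protein glycosylation, ranged from 23.9 to 35.0 CPM. Srd5a1 stood at 1.68 to 3.26 CPM, with 626 counts in all Dpp4+ cells. In Dpp4+ fibroblasts against the mean of the other types, Srd5a1 (log2 difference 0.43 ± 0.15), Hsd17b4 (0.17 ± 0.04) and Srd5a3 (0.13 ± 0.06) were higher and Hsd17b10 (-0.31 ± 0.04) was lower, while Hsd17b11 (0.01) and Hsd17b12 (-0.06) did not pass the test. The Srd5a3 call was lost without VCD_E2_P4, VCD_High_PBDE_E2_P4 or VCD_Low_E2 (highest adjusted p = 0.074). Altogether 5 members were higher and 2 lower in Dpp4+ fibroblasts, beside 69.4% of 12293 genes called in either direction, 34.6% higher and 34.8% lower. In the other types Hsd17b12 was higher in Fabp4 (0.28, adjusted p = 3.4e-06) and lower in Gdf10 fibroblasts (-0.32, adjusted p = 4.9e-06), and Hsd17b10 was higher in Tnc fibroblasts (0.31 ± 0.04, adjusted p = 3.6e-09). Akr1c18 was lower in Fabp4 (-2.98), Gdf10 (-2.41) and Tnc fibroblasts (-1.73), each against a mean that includes Dpp4+ fibroblasts. Srd5a3 was lower in Fabp4 (-0.16, adjusted p = 0.023), a call lost without VCD_E2 or VCD_Low_E2_P4 (highest adjusted p = 0.070). Hsd17b4 was lower in Tnc fibroblasts (-0.13, adjusted p = 0.030), which was lost in DESeq2 (adjusted p = 0.10), with RLE size factors (adjusted p = 0.055), under stricter gates (adjusted p = 0.060), without the cells of most UMIs (adjusted p = 0.072) and without any 1 of 6 libraries (VCD_E2_ICI, VCD_E2_P4, VCD_High_PBDE, VCD_High_PBDE_E2, VCD_High_PBDE_E2_P4 and VCD_Low_E2_P4, highest adjusted p = 0.16). The members called numbered 4 in Fabp4, 4 in Tnc and 3 in Gdf10 fibroblasts, beside 54.4%, 54% and 42.4% of all genes.

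**Figure D1:**
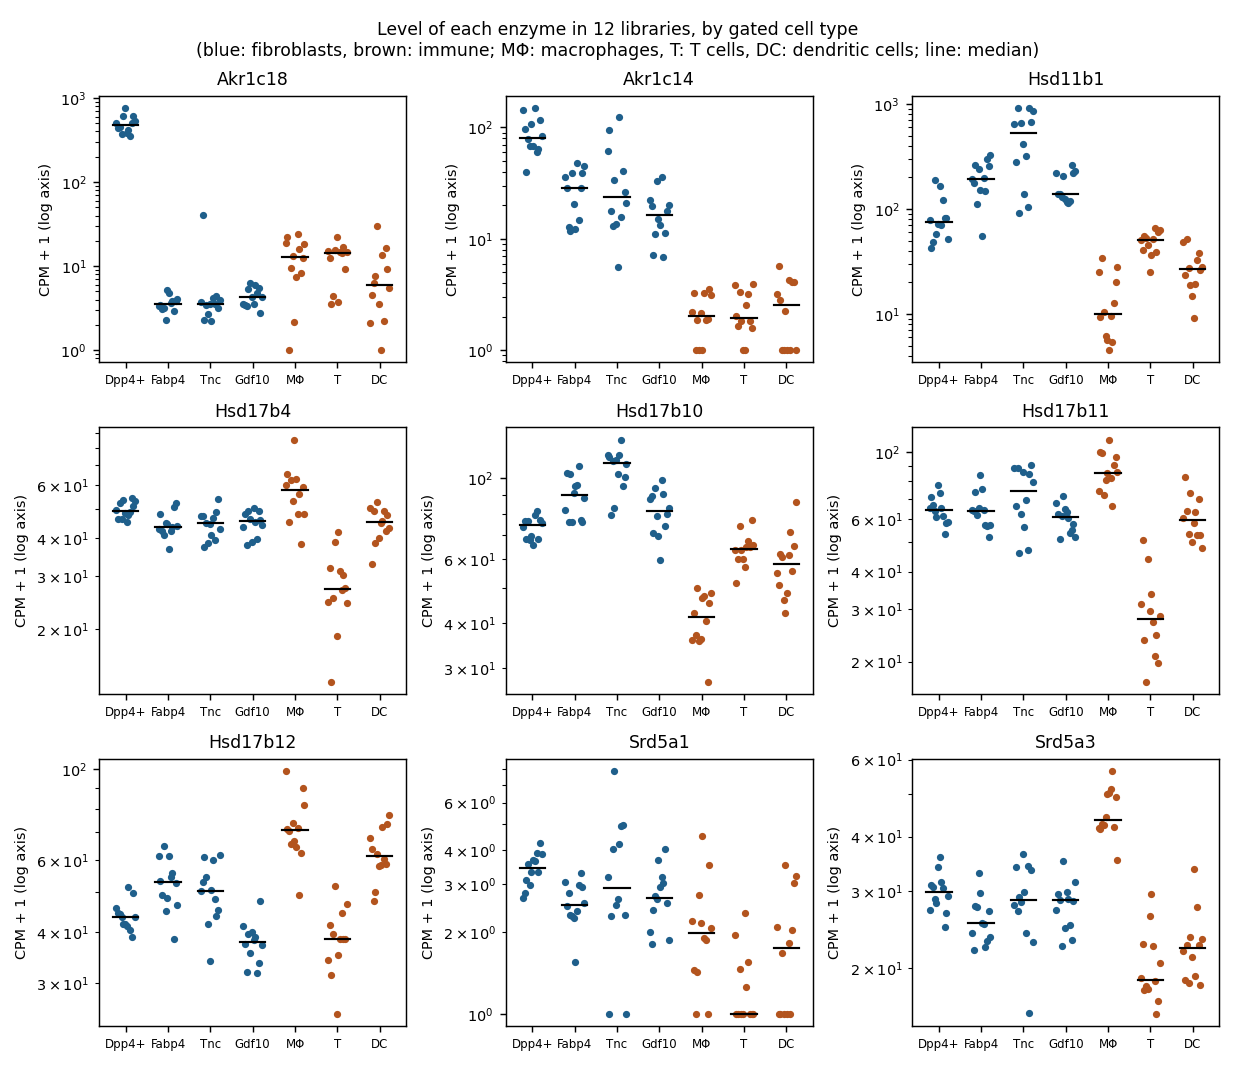
Level of each of the 9 enzymes, as CPM + 1 on a log axis, in summed cells of 7 gated types, with 1 point per library and a line at the median of 12 libraries. Akr1c18 stands at 356 CPM or more in Dpp4+ fibroblasts and no higher than 39.7 CPM in the other fibroblasts, whereas Hsd11b1 has its highest median in Tnc fibroblasts, although not in the E2 + P4 libraries, and is also present in T cells.

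Against all immune cells, 8 of the 9 enzymes were higher in fibroblasts, beside 45.1% of 15401 genes called higher and 85.8% called in all. The log2 differences were 5.59 ± 0.12 for Akr1c14, 4.45 ± 0.18 for Akr1c18, 2.25 ± 0.11 for Hsd11b1 and 1.91 for Srd5a1 (edgeR adjusted p for Hsd11b1 = 8.5e-12). Those of Hsd17b10, Hsd17b11, Hsd17b4 and Srd5a3 lay between 0.22 and 0.62. Hsd17b12 did not pass (0.00 ± 0.05, adjusted p = 0.97). Pooled macrophages were nonetheless above Dpp4+ fibroblasts in Hsd17b11 (85.8 against 62.6 CPM), Hsd17b12 (69.5 against 42.7 CPM) and Srd5a3 (44.8 against 28.6 CPM), a difference not tested.

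Hsd11b1 fell with E2, averaged over libraries with and without P4, in 3 of the 4 fibroblast types. In Tnc fibroblasts it stood at 674 CPM in VCD_Vehicle, 921 CPM in VCD_Low_PBDE and 662 CPM in VCD_High_PBDE. With E2 it was 282, 316 and 417 CPM in VCD_E2, VCD_Low_E2 and VCD_High_PBDE_E2. With E2 + P4 it was 91.4, 104 and 138 CPM in VCD_E2_P4, VCD_Low_E2_P4 and VCD_High_PBDE_E2_P4. The 3 hormone states formed 3 separate steps with no overlap. In this type 24.6% of genes separated libraries with E2 from those without, and 20.4% separated E2 + P4 from E2 libraries. Libraries that differ in PBDE level stand in for replicates here, in an additive fit of hormone and PBDE. Averaged over the 6 libraries with E2, Hsd11b1 fell by a log2 value of 2.04 ± 0.14 against no hormone (edgeR quasi-likelihood test, Benjamini-Hochberg adjusted p = 8.0e-06). P4 added to E2 gave a log2 change of -1.62 ± 0.17 against the E2 libraries (adjusted p = 0.0025). The average over E2 with and without P4 already holds part of that change, so these values do not add up. The E2 libraries alone gave -1.23 (adjusted p = 0.0016). Without the barcodes found in several libraries the log2 changes were -2.02 (adjusted p = 5.1e-06) and -1.64 (adjusted p = 0.0022), and the first stayed past the threshold in every alternative, from -2.26 to -1.23. VCD_E2_ICI stood at 919 CPM (95% Poisson interval, 852 to 989), within the hormone-free range, Intact at 640 CPM (604 to 678) and VCD_Vehicle_NormEnv at 848 CPM (792 to 907). These single libraries carry no test.

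The cells of the Tnc gate changed in other ways with hormone. Tnc, Mfap4 and Postn summed to 1290 to 1845 CPM without hormone, 2974 to 10695 CPM with E2 and 8917 to 11551 CPM with E2 + P4, and the 6 fibroblast markers to 40090 to 44946, 56258 to 77122 and 85759 to 91173 CPM. Since Tnc and Mfap4 define the gate, which cells entered it may have differed between hormone groups. The part of this in the values of Hsd11b1, or of any other gene read in Tnc fibroblasts, was not tested. Immune markers summed to 5.58 to 12.4 CPM in the same libraries. Median UMIs per Tnc cell were 7242 to 8975 without hormone, 15897 to 17529 with E2 and 18622.5 to 28786 with E2 + P4. Without hormone, 1534, 1618 and 388 Hsd11b1 counts came from 269, 179 and 70 cells (no, low and high PBDE). With E2, 596, 782 and 821 came from 107, 120 and 118 cells. With E2 + P4, 627, 368 and 335 came from 233, 198 and 99 cells. CPM is a share of all counts, so a change in transcript per cell was not tested. With all fibroblasts summed, which needs neither Tnc nor Mfap4 but still rests on the 6 fibroblast markers, Hsd11b1 was lower with E2 by a log2 change of -0.62 (edgeR adjusted p = 0.020, with 18.5% of all genes called), and by -0.72 in the E2 libraries alone (adjusted p = 0.037, with 8.13% called). P4 added to E2 gave 0.19 in these sums (adjusted p = 0.70, with 0.0136% called), so the fall with P4 in Tnc fibroblasts was not seen there.

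Hsd11b1 was also lower with E2 in Fabp4 and Gdf10 fibroblasts. In Fabp4 fibroblasts the values were 258, 301 and 242 CPM without hormone in VCD_Vehicle, VCD_Low_PBDE and VCD_High_PBDE, and 175, 198 and 150 CPM with E2 in the same PBDE order. With E2 + P4 they were 110, 147 and 54.6 CPM. In Gdf10 fibroblasts they were 218, 259 and 207 CPM without hormone, 137, 114 and 123 CPM with E2, and 129, 117 and 117 CPM with E2 + P4. In both types all 6 libraries with E2 lay below the 3 without it, as in Tnc fibroblasts. Such a separation, in either direction, was seen for 15.6% of genes in Fabp4, 11% in Gdf10 and 24.6% in Tnc fibroblasts. The log2 change with E2 was -1.08 ± 0.15 in Fabp4 (edgeR adjusted p = 0.0017) and -0.82 ± 0.10 in Gdf10 fibroblasts (adjusted p = 0.00078). The E2 libraries alone gave -0.68 (adjusted p = 0.069) and -0.83 (adjusted p = 0.0058). Without the shared barcodes the changes were -1.08 (adjusted p = 0.0016) and -0.80 (adjusted p = 0.0012). P4 added to E2 gave log2 values of -0.80 ± 0.18 in Fabp4 (adjusted p = 0.090) and 0.01 in Gdf10 fibroblasts (normal 95% interval, -0.22 to 0.25). That interval takes the spread as normal, so it is narrower than a fit with few degrees of freedom warrants. VCD_E2_ICI stood at 262 CPM (249 to 275) in Fabp4 fibroblasts, among the hormone-free libraries, but at 138 CPM (122 to 154) in Gdf10 fibroblasts, beside the E2 libraries. Intact and VCD_Vehicle_NormEnv stood at 190 CPM (181 to 201) and 324 CPM (308 to 340) in Fabp4 fibroblasts, and at 220 CPM (206 to 235) and 230 CPM (216 to 244) in Gdf10 fibroblasts. Over all libraries, Tnc, Mfap4 and Postn summed in the Fabp4 gate to 334 to 5776 CPM, and the 6 fibroblast markers to 36011 to 65097 CPM. Cells that also met the Tnc or Gdf10 rule were left out of this gate. Which cells entered it may thus have differed between hormone groups. The part of this in the values of Hsd11b1, or of any other gene read in Fabp4 fibroblasts, was not tested.

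In Dpp4+ fibroblasts no fall passed the test, and the values with E2 + P4 were the highest. Hsd11b1 stood there at 82.1, 80.8 and 57.3 CPM without hormone, 41.9, 69.4 and 70.7 CPM with E2, and 189, 122 and 165 CPM with E2 + P4, in the order no, low and high PBDE. The E2 libraries overlapped those without hormone, and all 3 libraries with E2 + P4 lay above the rest. In this type 16.3% of genes separated E2 + P4 from E2 libraries, in either direction. The log2 change with E2 was 0.40 ± 0.24 (edgeR adjusted p = 0.30), but the E2 libraries alone gave the opposite sign, -0.33 ± 0.27 (adjusted p = 0.48). P4 added to E2 gave 1.47 ± 0.28, which did not pass in edgeR (adjusted p = 0.23) and did in DESeq2 (adjusted p = 1.7e-06). In edgeR none of 13340 genes passed for P4 in this type (0%), with 1209 at an unadjusted p under 0.05. Tested directly against Dpp4+ fibroblasts, with the library as a block (24.8%, 11.1% and 3.05% of all genes called in Tnc, Fabp4 and Gdf10 fibroblasts), the E2 effect on Hsd11b1 was lower in Tnc (-2.45 ± 0.26, adjusted p = 1.5e-06), Fabp4 (-1.50 ± 0.26, adjusted p = 0.00074) and Gdf10 fibroblasts (-1.21 ± 0.26, adjusted p = 0.013). The last of these was lost without VCD_Low_PBDE (-1.21, adjusted p = 0.16), VCD_High_PBDE (-1.03, adjusted p = 0.083), VCD_Low_E2 (-1.06, adjusted p = 0.064) or VCD_E2_P4 (-1.09, adjusted p = 0.055). These differences average E2 with and without P4. With the E2 libraries alone none of the 3 passed, at -0.90 ± 0.30 in Tnc (adjusted p = 0.056), -0.36 ± 0.29 in Fabp4 (adjusted p = 0.63) and -0.48 ± 0.30 in Gdf10 fibroblasts (adjusted p = 0.61), where 11.1%, 3.79% and 1.78% of all genes were called. A difference between the types under E2 without P4 was thus not shown. The effect of P4, for which 7.25%, 2.83% and 0.0234% of all genes were called in that order, differed from that in Dpp4+ fibroblasts by -3.09 ± 0.30 in Tnc (adjusted p = 7.5e-06) and -2.28 ± 0.30 in Fabp4 fibroblasts (adjusted p = 0.00077), but not past the threshold in Gdf10 fibroblasts (-1.46 ± 0.31, adjusted p = 0.18, and 0.0039 in DESeq2). VCD_E2_ICI (47.4 CPM, 43.6 to 51.5), Intact (77.5 CPM, 73.3 to 82.0) and VCD_Vehicle_NormEnv (50.5 CPM, 47.5 to 53.6) carry no test, with Intact inside the hormone-free range and the other libraries below it.

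**Figure D2:**
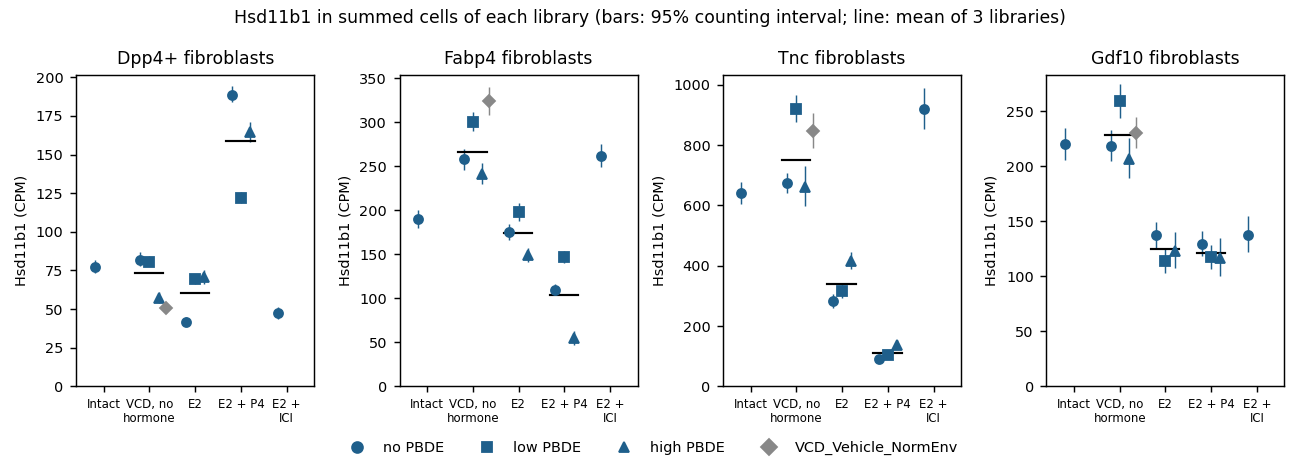
Hsd11b1 level in CPM in summed cells of each library, by fibroblast type and hormone group, with the 95% Poisson counting interval as a bar, the PBDE level as the symbol and the mean of the 3 libraries of a hormone state as a line. In Tnc fibroblasts the 3 states step down from 662 to 921 CPM, through 282 to 417 CPM, to 91.4 to 138 CPM, while in Dpp4+ fibroblasts the E2 + P4 libraries are the highest, at 122 to 189 CPM.

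Hsd11b2, the enzyme that inactivates glucocorticoid, was scarce, and was higher with E2, averaged over libraries with and without P4, in Tnc, Dpp4+ and Fabp4 fibroblasts. It had 0 counts among 4620101 in Tnc fibroblasts of the 3 hormone-free layout libraries. A floor of 3 counts over that group would be 0.649 CPM. With E2 there were 25 counts over the group, 3.81 CPM or 5.87 times the floor. Of these, 6 were in VCD_E2, 0 in VCD_Low_E2 and 19 in VCD_High_PBDE_E2. With E2 + P4 there were 123, 9.58 CPM or 14.8 times the floor, and each of those libraries held at least 16. These ratios cover neither counting error nor the spread between libraries. Outside the layout, VCD_Vehicle_NormEnv held 1 count in Tnc fibroblasts, VCD_E2_ICI 1 and Intact 0. The test was passed in Tnc (edgeR adjusted p = 0.034), Dpp4+ (log2 change 1.90, edgeR adjusted p = 0.026) and Fabp4 fibroblasts (1.95, adjusted p = 0.0066). With the E2 libraries alone it was passed in Dpp4+ fibroblasts (2.24, adjusted p = 0.032) but not in Fabp4 (1.66, adjusted p = 0.053) or Tnc fibroblasts (adjusted p = 0.13). In Dpp4+ fibroblasts the levels were 0.267 to 0.512 CPM without hormone and 1.27 to 3.64 CPM with E2 and 0.920 to 1.37 CPM with E2 + P4, so even the higher values were low. In Gdf10 fibroblasts there were 9, 5 and 4 counts without hormone, 2, 4 and 4 with E2, and 12, 5 and 9 with E2 + P4, in the order no, low and high PBDE, and the states overlapped. H6pd, which supplies NADPH to Hsd11b1, was lower with E2 in Tnc fibroblasts (log2 change -0.54, adjusted p = 0.039), at 58.0 to 68.2 CPM without hormone, 39.7 to 66.5 CPM with E2 and 30.1 to 41.4 CPM with E2 + P4. This call was lost with the E2 libraries alone (-0.22, adjusted p = 0.50), which overlapped the hormone-free ones.

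Akr1c14 fell when P4 was added to E2 in Tnc fibroblasts. There it stood at 25.5, 39.3 and 32.4 CPM without hormone, 94.1, 124 and 12.7 CPM with E2, and 11.95, 14.6 and 4.54 CPM with E2 + P4, in the order no, low and high PBDE. VCD_E2 and VCD_Low_E2 were the highest of the layout, and VCD_High_PBDE_E2 lay within the range of the E2 + P4 libraries. P4 added to E2 gave a log2 change of -2.79 ± 0.39 (edgeR adjusted p = 0.0067). The call was lost without VCD_Low_E2 (-2.54, adjusted p = 0.051) or VCD_Low_E2_P4 (-2.69, adjusted p = 0.085). In Fabp4 fibroblasts the levels were 38.2, 27.9 and 38.0 CPM without hormone, 27.9, 46.9 and 19.7 CPM with E2, and 10.7, 13.9 and 11.3 CPM with E2 + P4. The 3 libraries with E2 + P4 lay below the other 6 of the layout, and those with E2 overlapped the hormone-free ones. Averaged over E2 with and without P4 the log2 change was -0.94 ± 0.22 (adjusted p = 0.018), but the E2 libraries alone gave -0.25 (adjusted p = 0.63), and the call was lost without VCD_Vehicle (-0.79, adjusted p = 0.11), VCD_High_PBDE (-0.70, adjusted p = 0.084) or VCD_E2_P4 (-0.91, adjusted p = 0.052). P4 added to E2 gave -1.38 ± 0.27 in edgeR (adjusted p = 0.062) and -1.38 in DESeq2 (adjusted p = 7.0e-05).

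The remaining types also had lower values with E2 + P4 than with E2, without passing the test. In Gdf10 fibroblasts Akr1c14 stood at 10.0, 5.85 and 12.2 CPM with E2 + P4 against 18.6, 35.2 and 14.0 CPM with E2 (log2 change -1.37 ± 0.44, edgeR adjusted p = 0.37). In Dpp4+ fibroblasts it stood at 115, 63.6 and 66.9 CPM without hormone. With E2 it was 96.1, 149 and 105 CPM, and with E2 + P4 76.9, 59.3 and 66.9 CPM (log2 change -0.73 ± 0.24, adjusted p = 0.47). The E2 and E2 + P4 libraries did not overlap in Dpp4+, Fabp4 or Gdf10 fibroblasts, where 16.3%, 19.5% and 13.2% of genes were separated in either direction, but overlapped in Tnc fibroblasts (20.4% of genes separated). The effect of P4 in Tnc fibroblasts was lower than in Dpp4+ fibroblasts (-2.04, adjusted p = 0.0049), a difference lost without VCD_E2 (-1.23, adjusted p = 0.15) or VCD_E2_P4 (-1.85, adjusted p = 0.11). In VCD_E2_ICI Akr1c14 was at 39.1 CPM (35.6 to 42.9) in Dpp4+ and 11.8 CPM (9.21 to 14.8) in Fabp4 fibroblasts. The former was the lowest of the 12 libraries. In Intact it was at 142 CPM (137 to 148) in Dpp4+ and 60.9 CPM (50.1 to 73.3) in Tnc fibroblasts.

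**Figure D3:**
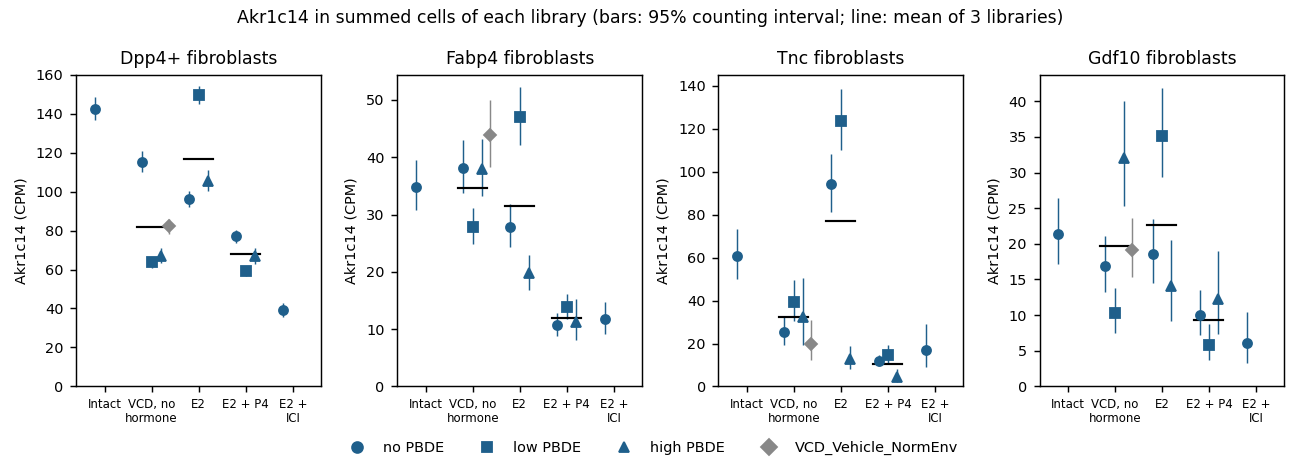
Akr1c14 level in CPM in summed cells of each library, drawn as for Hsd11b1, with 95% Poisson counting intervals, PBDE level as the symbol and the mean of 3 libraries as a line. In Fabp4 fibroblasts the E2 + P4 libraries lie at 10.7 to 13.9 CPM, below all E2 libraries, while in Tnc fibroblasts VCD_High_PBDE_E2, at 12.7 CPM, stands apart from the other E2 libraries at 94.1 and 124 CPM.

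Akr1c18 in Dpp4+ fibroblasts stood at 605, 506 and 613 CPM without hormone, 440, 411 and 766 CPM with E2, and 376, 356 and 378 CPM with E2 + P4, in the order no, low and high PBDE. The E2 + P4 libraries were the lowest of the layout and close to each other, while VCD_High_PBDE_E2 was the highest. In this type 16.3% of genes separated E2 + P4 from E2 libraries, in either direction. The log2 change with E2 was -0.40 ± 0.14 (edgeR adjusted p = 0.11), and that of P4 added to E2 was -0.42 ± 0.17 (adjusted p = 0.54). With all fibroblasts together, Akr1c18 was lower with E2 (-0.32, adjusted p = 0.031), a call lost with the E2 libraries alone (-0.16, adjusted p = 0.30). VCD_E2_ICI was at 446 CPM (434 to 458), Intact at 501 CPM (490 to 512) and VCD_Vehicle_NormEnv at 532 CPM (522 to 542).

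The changes of the other enzymes were small. Hsd17b11 in Dpp4+ fibroblasts stood at 57.2, 52.5 and 60.0 CPM without hormone, 69.7, 64.0 and 77.1 CPM with E2, and 62.7, 60.3 and 72.0 CPM with E2 + P4, and rose by a log2 change of 0.23 ± 0.05 (edgeR adjusted p = 0.038). Srd5a3 in the same cells went from 23.9 to 27.3 CPM without hormone to 27.8 to 35.0 CPM in the 6 libraries with E2 (0.25 ± 0.06, adjusted p = 0.038). The groups did not overlap in either, as for 13.9% of genes. Both calls were near the threshold. That of Hsd17b11 was lost when any 1 of the 9 libraries was left out (highest adjusted p = 0.13), and that of Srd5a3 without any but VCD_High_PBDE_E2 (highest adjusted p = 0.15). In Tnc fibroblasts Hsd17b11 fell, from 89.6, 83.6 and 61.4 CPM without hormone to 65.2, 68.4 and 85.3 CPM with E2 and 45.0, 46.1 and 55.3 CPM with E2 + P4 (log2 change -0.52 ± 0.14, adjusted p = 0.024). Only the E2 + P4 libraries lay below the rest there, and 20.4% of genes in Tnc fibroblasts separated E2 + P4 from E2 libraries. The E2 libraries alone gave -0.22 (adjusted p = 0.44), and the call was lost without VCD_Vehicle, VCD_Low_PBDE, VCD_E2, VCD_E2_P4 or VCD_Low_E2_P4 (highest adjusted p = 0.22). The E2 effect on Hsd17b11 nevertheless differed between Tnc and Dpp4+ fibroblasts (-0.79, adjusted p = 0.00012), also with the E2 libraries alone (-0.50, adjusted p = 0.028). Hsd17b10 in Fabp4 fibroblasts rose from 75.1, 75.9 and 74.8 CPM to 103, 94.8 and 90.4 CPM with E2 and 102, 107 and 94.4 CPM with E2 + P4 (0.33 ± 0.07, adjusted p = 0.016), with no overlap, as for 15.6% of genes there. This call was lost without VCD_Low_PBDE (0.33, adjusted p = 0.079) or VCD_Vehicle (0.30, adjusted p = 0.080). Hsd17b4 in Dpp4+ fibroblasts was at 50.2 to 53.7 CPM without hormone and 44.2 to 47.8 CPM with E2 or E2 + P4 (-0.20 ± 0.06, adjusted p = 0.065), without overlap, as for 13.9% of genes there. With all fibroblasts summed, Hsd17b4 was lower (-0.20, adjusted p = 0.025) and Hsd17b10 higher with E2 (0.19, adjusted p = 0.047), and neither passed with the E2 libraries alone (-0.18, adjusted p = 0.072, and 0.18, adjusted p = 0.11). Hsd17b12 and Srd5a1 passed no hormone test.

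Counted over the 4 fibroblast types, 34 tests of a member against E2 could be made, since Akr1c18 and Srd5a1 were too scarce in Tnc fibroblasts, and 8 passed. The calls numbered 2 in Dpp4+, 3 in Fabp4, 2 in Tnc and 1 in Gdf10 fibroblasts, where 10.4%, 15.2%, 26.1% and 5.24% of all genes were called. For P4 added to E2, 2 of 34 passed, both in Tnc fibroblasts (3.02% of all genes called, against 0% in Dpp4+, 0.319% in Fabp4 and 0.0272% in Gdf10 fibroblasts). An unadjusted p under 0.05 for P4 was reached by 9 of these 34. Of all genes, 1209 of 13340 reached it in Dpp4+, 1975 of 11927 in Fabp4, 1794 of 10695 in Tnc and 972 of 11041 in Gdf10 fibroblasts. With the E2 libraries alone, 2 passed, Hsd11b1 in Tnc and Gdf10 fibroblasts, beside 5.05% of all genes in Dpp4+, 3.97% in Fabp4, 11.1% in Tnc and 1.54% in Gdf10 fibroblasts. In macrophages, T cells and dendritic cells 7 members each could be tested, and in edgeR 0 of 21 passed for E2 (3 at an unadjusted p under 0.05) or for P4 (2 at an unadjusted p under 0.05). DESeq2, which gave an adjusted p for 18 and 21 of them, called 0 as well. Of all genes, edgeR called 0.363%, 0% and 0.0809% for E2 and 0.257%, 0.115% and 0% for P4 in macrophages, T cells and dendritic cells. Genes at an unadjusted p under 0.05 numbered 985 of 8549, 404 of 9546 and 578 of 7419 for E2 in that order. For P4 they numbered 519, 1228 and 320 of the same totals. Hsd11b1 in T cells stood at 59.8, 38.1 and 44.8 CPM without hormone, 39.998, 50.8 and 24.2 CPM with E2, and 52.2, 65.1 and 35.5 CPM with E2 + P4, with all states overlapping.

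**Figure D4:**
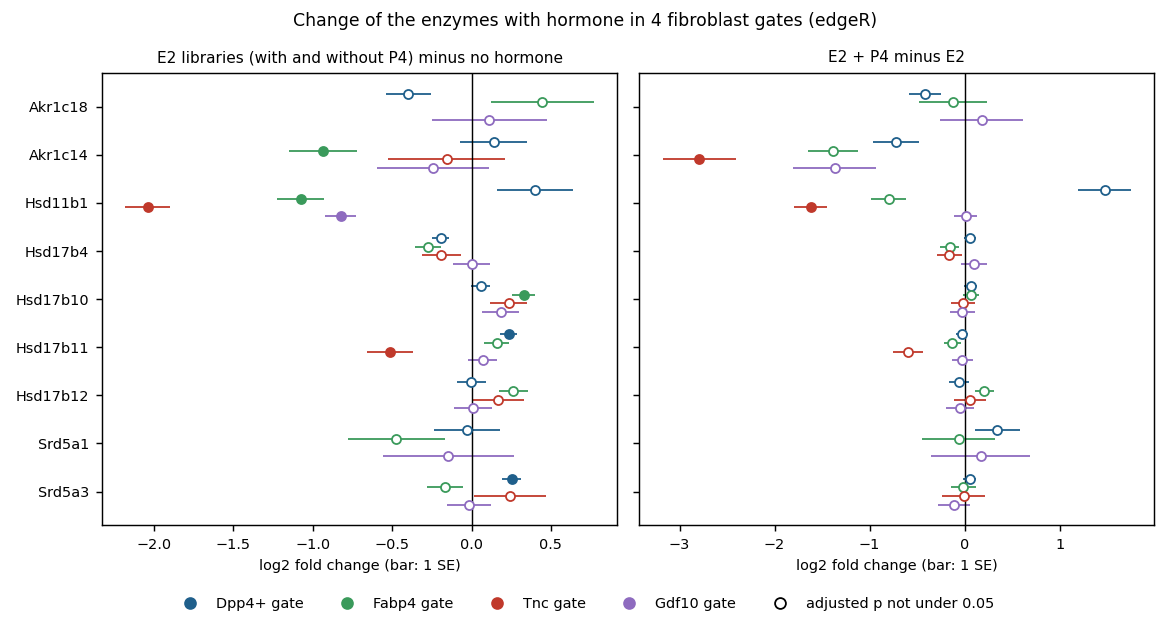
Log2 fold change of each enzyme with E2 (left, the 6 libraries with E2 against the 3 without hormone) and with P4 added to E2 (right, 3 against 3 libraries) in the 4 fibroblast types, by edgeR, with 1 SE as the bar and filled points for an adjusted p under 0.05. The largest changes are those of Hsd11b1 and Akr1c14. With P4 added, the Hsd11b1 value in Dpp4+ fibroblasts lies on the opposite side of 0 from Fabp4 and Tnc fibroblasts, while its value with E2 rests on the E2 + P4 libraries.

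PBDE left no member past the threshold. For the low level 0 of 55 member tests over 7 cell types passed in edgeR, with 2 at an unadjusted p under 0.05 and a lowest adjusted p of 0.955 (Srd5a3 in dendritic cells). Of all genes, 0% passed in Dpp4+ and Tnc fibroblasts, macrophages and T cells, 0.00838% in Fabp4 and 0.00906% in Gdf10 fibroblasts and 0.0674% in dendritic cells. Genes at an unadjusted p under 0.05 numbered 536 of 13340 in Dpp4+, 377 of 11927 in Fabp4, 216 of 10695 in Tnc and 431 of 11041 in Gdf10 fibroblasts. In macrophages, T cells and dendritic cells they numbered 276 of 8549, 244 of 9546 and 423 of 7419. For the high level 0 of 55 passed, with 11 at an unadjusted p under 0.05 and a lowest adjusted p of 0.197 (Hsd17b10 in Dpp4+ fibroblasts), beside 0.03% of all genes in Dpp4+, 0.562% in Fabp4, 0.00935% in Tnc and 0.254% in Gdf10 fibroblasts, 0.222% in macrophages, 0.0524% in T cells and 0.0135% in dendritic cells. At the high level, genes at an unadjusted p under 0.05 numbered 2490 of 13340 in Dpp4+ and 2070 of 11927 in Fabp4 fibroblasts. They numbered 1151 of 10695 in Tnc and 1421 of 11041 in Gdf10 fibroblasts. In macrophages, T cells and dendritic cells they numbered 758 of 8549, 895 of 9546 and 592 of 7419. DESeq2 also called 0 members for either level. It gave an adjusted p for 31 of 34 fibroblast and 20 of 21 immune tests at the low level. At the high level it gave 1 for 20 of 34 and 18 of 21. Without the filter on low counts, 2 edgeR calls appeared for the high level.

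Of 62 other genes of steroid synthesis, conversion and sulfation, 60 were listed. With E2, 4 were higher and 1 lower of 34 tested in Dpp4+, 2 and 3 of 30 in Fabp4, 3 and 7 of 26 in Tnc, and 1 and 1 of 29 in Gdf10 fibroblasts, beside 10.4%, 15.2%, 26.1% and 5.24% of all genes called. With the E2 libraries alone, 2 were higher and 1 lower in Dpp4+, 1 and 1 in Fabp4, 0 and 1 in Tnc, and 1 and 0 in Gdf10 fibroblasts, beside 5.05%, 3.97%, 11.1% and 1.54% of all genes. Cyp27a1, the sterol 27-hydroxylase, was lower in all 4, by log2 changes of -0.49, -1.11, -1.51 and -0.72 in the order Dpp4+, Fabp4, Tnc and Gdf10, and with the E2 libraries alone the call held in the first 3 types but not in Gdf10 fibroblasts. Its Tnc levels were 32.4 to 59.2 CPM without hormone, 12.5 to 28.4 CPM with E2 and 14.7 to 19.8 CPM with E2 + P4, which did not overlap the hormone-free range, as for 24.6% of genes there. Hsd17b13, a lipid droplet relative of Hsd17b11, was higher in Dpp4+ (1.69) and Fabp4 fibroblasts (1.95). Cyp7b1, which hydroxylates oxysterols, was higher in Gdf10 (1.09) and lower in Tnc fibroblasts (-0.83), and Tspo, the mitochondrial translocator protein, was higher in Dpp4+ (0.66) and lower in Fabp4 fibroblasts (-0.32). Cyp39a1 (0.70) was higher in Dpp4+ and Por (-0.61), the electron donor of microsomal cytochromes P450, lower in Fabp4 fibroblasts. In Tnc fibroblasts Akr1b3 (0.57) and Dhrs11 (1.62) were higher and Cbr1 (-0.47), Cyb5a (-0.39), Dhrs7 (-0.56) and Hsdl2 (-0.72) lower. Of these calls with E2, those that held with the E2 libraries alone were Cyp27a1 in the 3 types named, Hsd17b13 in both types, Hsd11b2 in Dpp4+ and Cyp7b1 in Gdf10 fibroblasts. With P4 added to E2, Cyp7b1 in Tnc fibroblasts (-1.25) was the single gene called, where 3.02% of all genes were.

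Several steroid receptors were read beside the enzymes. Dpp4+ fibroblasts exceeded the mean of the other types in Pgr (log2 difference 3.89), Esr1 (1.46) and Nr3c1 (0.18), the glucocorticoid receptor, and were lower in Nr3c2 (-0.28), the mineralocorticoid receptor. With E2, Esr1 (-0.74) fell in Fabp4 fibroblasts and Nr3c2 (-1.24) in Tnc fibroblasts, and neither passed with the E2 libraries alone (-0.53, adjusted p = 0.15, and -1.18, adjusted p = 0.14). For P4 added to E2, Pgr in Tnc fibroblasts was called lower (-4.67), where 3.02% of all genes were called. Its counts in each library, and its value with a library left out, are not given here. Of the 30 wider-list genes tested between fibroblast types, 9 were higher and 14 lower in Dpp4+ fibroblasts, beside 34.6% and 34.8% of all genes. The retinol and steroid dehydrogenase Dhrs9 (4.40) and Akr1c19 (2.69) led the higher ones, and Cyp1b1 (-2.37), which hydroxylates estradiol, Fdxr (-1.62), Hsd11b2 (-1.55), Cyp7b1 (-1.51), Cyp39a1 (-1.27) and H6pd (-1.08) the lower ones. Among the other higher genes were Papss1, Dhrs7, Akr1b8, Cyb5r3, Cbr1 and Hsd17b7 (0.23 to 0.45), and the other lower ones Por, Cyp27a1, Pgrmc1, Pgrmc2, Akr1b3, Papss2, Stard3 and Cyb5a (-0.77 to -0.11). Against immune cells 26 of 37 were higher in fibroblasts, led by Cyp1b1 (6.12) and Akr1c19 (5.07), and 8 were lower, among them Sult2b1 (-6.46), Akr1c12 (-6.06), Cyp11a1 (-5.95) and Akr1c13 (-5.11), beside 45.1% of all genes called higher and 40.8% called lower. Among the other higher genes were Akr1b8, Cyp7b1, Cyp39a1, Hsd17b13, Papss2, H6pd, Cyb5a, Cyb5r3, Hsd3b7, Hsd17b7, Papss1, Hsd11b2, Fdx1, Pgrmc1, Dhrs9, Hsd3b2, Cbr1, Pgrmc2, Fdxr, Dhrs7, Hsd17b14, Por and Hsdl2 (0.37 to 4.06), and the other lower ones Dhrs11, Stard3, Tspo and Akr1b3 (-1.22 to -0.17). By mean CPM over 12 libraries, Cyb5a, a cytochrome b5 that donates electrons, was the wider-list gene with most counts in each fibroblast type (438 to 654 CPM), and Tspo in macrophages, T cells and dendritic cells (449 to 506 CPM).

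Genes with the most similar pattern were sought over 84 sums, 12 libraries by 7 cell types, among 8282 genes, as Pearson's r of log2(CPM + 1). The sums share libraries and cell types, so r is given as a description. For Akr1c18 they were Aldh1a3, Krtdap and Dmkn (each r = 0.87), for Akr1c14 Osr2 (0.93), Prss23 (0.92) and Nova1 (0.91), and for Hsd11b1 Fam69b (0.88), Penk (0.88) and Cyp4b1 (0.87). Hsd17b10 was most like Pebp1 (0.91), Krtcap2 (0.90) and Ppib (0.90). The remaining members had weaker matches. Hsd17b4 went with Asph (0.80), Wdfy3 (0.79) and Rab3il1 (0.78), and Hsd17b11 with Asah1 (0.84), Tubb6 (0.83) and Asph (0.83). Hsd17b12 went with Zfp106 (0.78), Cnpy3 (0.76) and Cyp4f16 (0.76), and Srd5a3 with Grn (0.83), Gnaq (0.82) and Ap2a2 (0.81). Srd5a1 stayed under the 10 CPM that this comparison required.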

How the data were processed

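Droplet 3′ single-cell RNA libraries (10x, v3 chemistry) of mammary glands were measured, 1 per group. Unnormalized matrices of UMI counts, with genes as rows and barcodes as columns, were deposited by the authors, and the submitters' processing notes name Cell Ranger 3.1.0 and the mm10 genome. From these counts, cells were filtered and gated on marker genes, with thresholds set after the marker distributions had been seen. No doublet caller was run, and leaving out the 5% of cells with most UMIs in each library and type was an alternative. Counts were summed per library and type and tested with edgeR 4.0.16 in R 4.3.3 (TMM, low-count filter, quasi-likelihood test, Benjamini-Hochberg adjustment over all genes tested, threshold 0.05), with DESeq2 1.42.0 as an alternative. The 9 libraries of hormone by PBDE were fitted additively, which leaves 4 residual degrees of freedom. The p-values therefore measure only the spread among single libraries of different PBDE level. Cell types were compared over all 12 libraries, and differences between types with the library as a block. SE is the log2 change divided by the square root of its F statistic. Scripts were tested on simulated data. The members and the gene lists were chosen with earlier results of these data known. The rule for named genes took all members in every comparison, those of the wider list that passed a test or had the highest mean CPM in a type, and, for each member with 10 CPM or more in some type, the 3 genes most like it among those at 10 CPM or more on average. Members that did not pass are given in part as counts. Calls of the wider list among the Dpp4- fibroblast types and in differences of hormone effects between types are not given. Counting intervals are exact Poisson or binomial and cover counting error only. The floor used for Hsd11b2 was set at 3 counts over a group. Sequences are from RefSeq. Results for 1 receptor gene and 1 gene of the wider list are not reported here.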

Additional observations from a re-analysis of the deposited data

Results flagged for a closer look

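Each of the following is a log2 difference between the hormone effect in another fibroblast type and that in Dpp4+ fibroblasts, flagged because the difference itself passed the edgeR quasi-likelihood test. For Hsd11b1 the E2 effect differed by -2.45 in Tnc, -1.50 in Fabp4 and -1.21 in Gdf10 fibroblasts, averaged over E2 with and without P4. With the E2 libraries alone these became -0.90 (adjusted p = 0.056), -0.36 (adjusted p = 0.63) and -0.48 (adjusted p = 0.61), and the value in Gdf10 fibroblasts also lost its call without VCD_Low_PBDE, VCD_High_PBDE, VCD_Low_E2 or VCD_E2_P4 (highest adjusted p = 0.16). The P4 effect on Hsd11b1 differed by -3.09 in Tnc and -2.28 in Fabp4 fibroblasts. For Akr1c14 the E2 effect differed by -1.06 in Fabp4 fibroblasts (adjusted p = 0.020), which was lost under stricter gates (-0.70, adjusted p = 0.27), with the E2 libraries alone (-0.75, adjusted p = 0.25), in DESeq2 (adjusted p = 0.094) and without VCD_E2_P4, VCD_High_PBDE, VCD_High_PBDE_E2_P4 or VCD_Low_PBDE. The P4 effect on Akr1c14 differed by -2.04 in Tnc fibroblasts. For Hsd17b11 the E2 effect differed by -0.79 in Tnc fibroblasts (-0.50 with the E2 libraries alone, adjusted p = 0.028) and the P4 effect by -0.57 (adjusted p = 0.014), the latter lost without VCD_E2, VCD_E2_P4, VCD_High_PBDE_E2, VCD_Low_E2 or VCD_Low_E2_P4 (highest adjusted p = 0.16).

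The P4 effect on Akr1c18 differed by -2.76 in Tnc fibroblasts (adjusted p = 0.0068). A single cell held 52 of the 84 Akr1c18 counts of VCD_E2 there, and without that library the difference was -0.03 (adjusted p = 1). It was -0.75 (adjusted p = 0.72) without VCD_E2_P4 and -1.79 (adjusted p = 0.27) in DESeq2.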

How the results depend on the processing

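No single result that passed the threshold turned its direction in an alternative that could be computed per cell type, but values that did not pass did turn. With the E2 libraries alone, Hsd11b1 in Dpp4+ fibroblasts went from 0.40 to -0.33 (adjusted p = 0.48). With all gated fibroblasts summed, Hsd11b1 gave 0.19 for P4 (adjusted p = 0.70), against -1.62 in Tnc fibroblasts. The 8 member calls for E2 over all types became 5 in DESeq2, 2 with the E2 libraries alone, 4 with a term for a code that some deposited files share, and 3 to 9 when each library was left out in turn. Which calls changed with that code is not given. The 2 calls for P4 became 5 in DESeq2, 9 without the filter on low counts and 1 to 4 with a library left out, and 0 members passed with all gated fibroblasts summed. Without the filter, 2 calls appeared for high PBDE against 0. Shares of all genes called are not given for DESeq2, the file-code term, the missing filter or libraries left out. The counts for these, here and below, therefore cannot be set against such shares. The 5 differences between types in the E2 effect became 2 with the E2 libraries alone, Hsd17b11 and Akr1c18 in Tnc fibroblasts (the latter 3.08, adjusted p = 0.0081, where 1 cell held 52 of 84 counts of VCD_E2). Of all genes, 24.8%, 11.1% and 3.05% were called in Tnc, Fabp4 and Gdf10 fibroblasts, and 11.1%, 3.79% and 1.78% with the E2 libraries alone. With a library left out, the differences between types gave 3 to 5 calls for E2 and 2 to 5 for P4, against 5 each. The Dpp4+ comparison gave 6 to 7 calls against 7, and those among the other types 9 to 12 against 11. The cause was not tested. Leaving out barcodes found in several libraries kept 305 single results on the same side of the threshold and moved 1 across it. Thinning to 2000 UMIs moved 35 of 36 shares of cells. Counts of scarce transcripts, such as Srd5a1, limit what could be seen. No paired analysis was possible because each group had 1 library, so that the groups share only replicate number 1. Library and PBDE level were terms of the fits.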
